A study of Mus musculus with 12 samples.

Results

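Spliceosome genes of 4 symbol classes were examined for peaks of the histone demethylases Jmjd2a and Jmjd2c around their transcription start sites. The classes were the genes whose symbol begins with Snrp (core snRNP proteins), with Sf3a or Sf3b (subunits of the SF3a and SF3b complexes), with Srsf (serine/arginine-rich splicing factors) and with Prpf (pre-mRNA processing factors). RefSeq holds 45 protein-coding mouse genes with such symbols, and 40 of them had a start site named in the deposited files. These 40 comprised 10 Snrp, 9 Sf3, 8 Srsf and 13 Prpf genes, out of 11835 genes with a named start site and 26219 RefSeq genes with a curated transcript. The 5 genes without a named start site were Snrpa, Snrpn, Srsf2, Srsf3 and Srsf12. The 4 pseudogenes that share the symbols were left out.

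The series profiled chromatin of mouse leukaemic granulocyte-macrophage progenitors (L-GMP) transformed with the MLL-AF9 fusion oncogene, by chromatin immunoprecipitation and sequencing (ChIP-seq). All 12 libraries came from lines with the genotype Jmjd2a/b/cf/f;Rosa26::CreERT2 on a C57BL/6 background, so the controls also carried the conditional alleles and the tamoxifen-inducible Cre at the ubiquitously active Rosa26 locus. Cells were cultured in 20% serum with IL-3 at 10 ng/ml, either untreated or with 4-hydroxytamoxifen (OHT) at 500 nM for 96 h to delete the demethylase genes. Each condition had 1 library for Jmjd2a, 1 for Jmjd2c, and 2 each for H3K9me3 and H3K36me3, the histone marks these enzymes remove. The deposited positions, on mm10, form a list for Jmjd2a (8977 peaks), a list for Jmjd2c (10521 peaks) and a table of co-bound start sites. They carry no height, no read count and no value per library, so the treatment and the marks were not analysed here, the depth is unknown, and no call below has a replicate check. The sources used here do not give which libraries entered each list, and without expression levels the cell type could not be checked against its markers.

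The spliceosome removes introns from pre-mRNA and is assembled from small nuclear ribonucleoproteins (snRNPs), each a small nuclear RNA with a ring of Sm proteins and its own specific proteins. The U1 snRNP recognises the 5′ splice site, the U2 snRNP with its SF3a and SF3b complexes holds the branch point, and the U4/U6.U5 tri-snRNP, which contains several Prpf proteins, brings in the catalytic RNAs. SR proteins bind exons and help recruit these particles. Genes of this machinery, among them SF3B1 and SRSF2, are recurrently mutated in human myeloid neoplasms. Jmjd2a and Jmjd2c (Kdm4a and Kdm4c) hold tandem Tudor and PHD domains beside their catalytic domain and are found mostly at active promoters.

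The promoter sequences below are examples printed for a motif that they hold. They come from RefSeq, and for each named member the promoter nearest its start site in the files was taken. RefSeq promoters (assembly GRCm38.p6, which shares its chromosome sequences with mm10) were found for 39 of the 45 genes, and a window from 250 bases before to 50 bases after the start was searched for short motifs on both strands. The printed stretches span 150 bases before and 30 bases from the start on the gene's own strand. The first 4 are from genes of the core U2 and Sm proteins that hold the ETS-family motif CCGGAAG, with the motif on either strand in capitals. They lie at chr2:143062919-143063098 on the plus strand (Snrpb2), chr1:133610251-133610430 on the minus strand (Snrpe), chr4:124714711-124714890 on the plus strand (Sf3a3) and chr12:4817458-4817637 on the plus strand (Sf3b6).
Snrpb2: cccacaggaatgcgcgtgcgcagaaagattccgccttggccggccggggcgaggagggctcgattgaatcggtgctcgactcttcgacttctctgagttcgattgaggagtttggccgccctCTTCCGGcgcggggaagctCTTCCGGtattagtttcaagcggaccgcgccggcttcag
Snrpe: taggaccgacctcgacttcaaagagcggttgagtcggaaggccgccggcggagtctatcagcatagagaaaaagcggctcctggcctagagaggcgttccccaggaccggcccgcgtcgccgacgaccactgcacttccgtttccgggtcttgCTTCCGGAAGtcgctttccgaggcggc
Sf3a3: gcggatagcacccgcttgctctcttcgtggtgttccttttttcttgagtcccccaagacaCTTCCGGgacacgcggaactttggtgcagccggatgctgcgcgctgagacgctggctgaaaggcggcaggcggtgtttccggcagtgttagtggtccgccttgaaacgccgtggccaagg
Sf3b6: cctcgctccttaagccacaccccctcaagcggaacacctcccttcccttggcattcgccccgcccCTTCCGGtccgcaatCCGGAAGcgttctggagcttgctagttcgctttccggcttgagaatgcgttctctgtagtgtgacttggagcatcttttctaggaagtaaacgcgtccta

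The next pair shows the GC box of SP and KLF factors, GGGCGG or its reverse complement, in capitals in promoters of the SR protein genes with the widest Jmjd2a peaks. Srsf6 lies at chr2:162931358-162931537 and Srsf9 at chr5:115327027-115327206, both on the plus strand.
Srsf6: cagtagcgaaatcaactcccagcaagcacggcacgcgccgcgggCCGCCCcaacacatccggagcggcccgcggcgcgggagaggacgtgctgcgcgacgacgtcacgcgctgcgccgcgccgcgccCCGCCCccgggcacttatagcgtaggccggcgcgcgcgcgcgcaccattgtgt
Srsf9: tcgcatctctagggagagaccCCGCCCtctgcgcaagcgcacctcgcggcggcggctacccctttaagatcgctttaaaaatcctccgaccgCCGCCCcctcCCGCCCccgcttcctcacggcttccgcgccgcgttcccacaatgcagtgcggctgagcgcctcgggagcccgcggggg

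The last is from an SR protein gene without a peak of either demethylase near its start, with its TATAAA match in capitals. Srsf3 lies at chr17:29032510-29032689 on the plus strand.
Srsf3: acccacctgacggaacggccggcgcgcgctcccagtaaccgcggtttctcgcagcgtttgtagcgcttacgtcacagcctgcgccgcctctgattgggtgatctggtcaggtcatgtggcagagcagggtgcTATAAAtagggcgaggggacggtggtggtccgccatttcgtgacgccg

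The ETS motif CCGGAAG was present in 18 of the 39 member promoters (46.2%), against 11.9% of all 20488 protein-coding promoters. Among promoters of genes with peaks of both demethylases near the start the share was 20.8%, among those with Jmjd2c alone it was 19.4%, and among those with neither it was 4.04%. By class the motif was present in 6 of 7 Sf3 promoters (85.7%), all except Sf3b1, in 4 of 10 Snrp promoters (40.0%), and in 4 of 11 promoters each of the Srsf and Prpf genes (36.4%). In Snrpb2 and Sf3b6, printed above, it occurred at 2 separate positions, and in Snrpe its 2 matches, on opposite strands, overlap just downstream of the start. Members with both demethylases held it in 9 of 21 promoters (42.9%) and members with Jmjd2c alone in 9 of 13 (69.2%), while none of the 5 genes without a named start did. A match describes letters in this window and not a bound factor.

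The GC box GGGCGG occurred in 24 of 39 member promoters (61.5%), against 47.6% of all protein-coding promoters and 66.4% of those with both demethylases. By class it was present in 10 of 11 Srsf promoters (90.9%), 4 of 7 Sf3 (57.1%), 6 of 11 Prpf (54.5%) and 4 of 10 Snrp promoters (40.0%). Members with both demethylases held it in 16 of 21 promoters (76.2%) and members with Jmjd2c alone in 6 of 13 (46.2%). Over all protein-coding genes these groups hardly differed, at 66.4% and 66.1%, and promoters with neither held it in 28.2%. The difference among members was not tested. The TATA motif TATAAA was found in 3 members (7.69%), against 12.4% of all protein-coding promoters. These were Sf3b3, Srsf2 and Srsf3, with the first base of the match at −96, −29 and −18 from the start. The NF-Y motif CCAAT was in 15 members (38.5%, against 38.4%). The cyclic-AMP response element TGACGTCA occurred in Snrpg alone (2.56%, against 2.3%), and the NRF1 motif GCGCATGC in Srsf7 alone (2.56%, against 3.64%). The YY1 motif AAGATGGC was in 2 promoters (5.13%, against 3.11%) and the E-box CACGTG in 4 (10.3%, against 8.03%). The median GC content of the member windows was 60.0%, against 57.0% for all protein-coding windows. The median ratio of observed to expected CpG was 0.902, against 0.588 for all. It was 0.803 for promoters of genes with both demethylases, 0.769 for those with Jmjd2c alone and 0.272 for those with neither. The lowest ratio among the 39 belonged to Snrpa1, at 0.365, followed by Snrpn at 0.574.

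Most of these genes had a Jmjd2c peak at the start and a smaller number a Jmjd2a peak as well. Occupancy here means a peak no more than 1000 bp from any of the gene's named start sites. Jmjd2c occupied 40 of the 45 protein-coding members (88.9%, exact Clopper-Pearson 95% interval 75.9 to 96.3%) and Jmjd2a 24 of 45 (53.3%, 37.9 to 68.3%). Every gene occupied by Jmjd2a was also occupied by Jmjd2c, so 24 carried both, 16 carried Jmjd2c alone and no member carried Jmjd2a alone. Over all 26219 curated RefSeq genes, Jmjd2a occupied 27.3%, Jmjd2c 37.9% and both 24.5%. Over the 21031 protein-coding genes the shares were 32.3%, 44.6% and 28.9%. Both member shares thus lay above the background, which is a description and was not tested. A gene is named in the files mainly because a peak lies near it, so shares are given of all 45 genes, and the 60.0% of the 40 named genes that carried Jmjd2a is not comparable with the background. Intervals treat genes as independent draws and do not cover errors of peak calling.

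The class shares ranged from 33.3 to 66.7% for Jmjd2a and from 72.7 to 100% for Jmjd2c. Among the Snrp genes, Jmjd2a occupied 8 of 12 (66.7%, 34.9 to 90.1%) and Jmjd2c 10 of 12 (83.3%, 51.6 to 97.9%). Among the Prpf genes, Jmjd2a occupied 8 of 13 (61.5%, 31.6 to 86.1%) and Jmjd2c 13 of 13 (100%, 75.3 to 100%). Jmjd2a was at 5 of 11 Srsf genes (45.5%, 16.7 to 76.6%) and Jmjd2c at 8 of 11 (72.7%, 39.0 to 94.0%). The Sf3 genes had the lowest Jmjd2a share, 3 of 9 (33.3%, 7.49 to 70.1%), next to the protein-coding background of 32.3%, while Jmjd2c was at 9 of 9 (100%, 66.4 to 100%). With 9 to 13 genes a class, all 4 Jmjd2a intervals overlap, and the difference between classes was not tested. The order depended on the peaks used: with the wider 50% of each list, Sf3 kept 3 genes with Jmjd2a while Snrp fell to 3, Srsf to 2 and Prpf to 4. The share over all genes in that setting is not given here, so these counts cannot be set against a background.

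**Figure D1:**
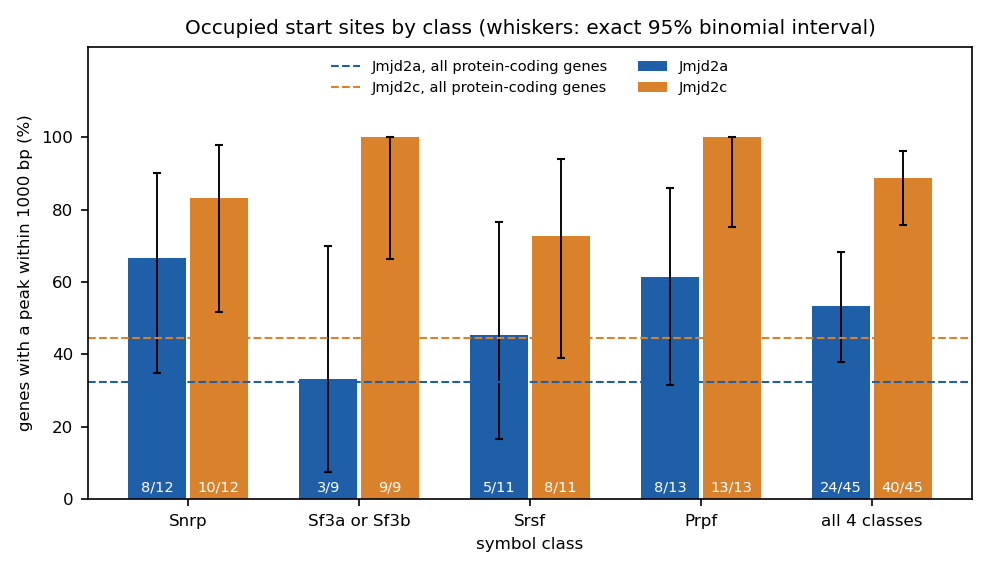
Percent of the RefSeq protein-coding genes of each symbol class with a Jmjd2a or Jmjd2c peak within 1000 bp of a start site. Bars start at 0, whiskers are exact 95% binomial intervals, and the dashed lines give the shares over all protein-coding genes (32.3% and 44.6%). The Jmjd2a bars range from 33.3% (Sf3) to 66.7% (Snrp) with overlapping whiskers, and all 4 Jmjd2c bars stand above their dashed line.

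By particle, Jmjd2a occupied 5 of 8 genes of Sm-ring proteins and Jmjd2c 7 of 8. Both occupied the 2 genes of the U2-specific Snrp proteins, Snrpa1 and Snrpb2. Of the U1-specific Snrp genes, Snrpc carried both and Snrpa neither. Of SF3a, which bridges the U2 snRNP core to SF3b, 1 of 3 genes carried Jmjd2a, and of SF3b, which clasps the branch point, 2 of 6. All 9 carried Jmjd2c. Jmjd2a was at 2 of 3 genes of U4/U6-associated Prpf proteins, at 1 of 2 of the U5-associated ones (Prpf6 but not Prpf8), and at 2 of 3 of the U1-associated ones. Jmjd2c was at all of these.

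Among the Sm-ring genes, Snrpb, Snrpd2, Snrpd3, Snrpe and Snrpg carried both proteins and Snrpd1 and Snrpf carried Jmjd2c alone. The positions below are given relative to the start site, negative upstream in the direction of transcription. Snrpb (start at chromosome 2, position 130179364, minus strand), which encodes SmB, had a Jmjd2a peak of 681 bp from −654 to 26 and a Jmjd2c peak of 1655 bp from −612 to 1042. Snrpe (chromosome 1, 133610280, minus strand) had a 421 bp Jmjd2a peak starting 3 bp inside the gene, over the printed ETS matches, and a Jmjd2c peak of 1248 bp around it. Snrpg (chromosome 6, 86371540) had peaks of 894 and 1578 bp for Jmjd2a and Jmjd2c. Snrpd2 (chromosome 7, 19149838) had a pair of Jmjd2a peaks, 731 bp over the start and 776 bp farther upstream, which the deposited list names for Qpctl, under a single Jmjd2c peak of 1909 bp.

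Snrpd3 was the Sm gene nearest to the threshold. Its closest Jmjd2a peak, 492 bp wide, ended 899 bp upstream of the start (chromosome 10, 75518042) and was named for the neighbour Gucd1, transcribed the other way. Jmjd2c had a 1018 bp peak over the Snrpd3 start and another of 596 bp, also named for Gucd1, so the Jmjd2a call at Snrpd3 may belong to either gene by position. Snrpf (chromosome 10, 93589658, minus strand) had a Jmjd2c peak of 1230 bp over the start and a Jmjd2a peak no nearer than 4513 bp. At Snrpd1 (chromosome 18, 10617796) Jmjd2c covered the start with 1050 bp, and the nearest Jmjd2a peak was 7173 bp away.

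The genes of particle-specific Snrp proteins mostly carried both demethylases. Snrpa1 (chromosome 7, 66060336), the U2 A′ protein, had a Jmjd2a peak of 625 bp inside a Jmjd2c peak of 1790 bp. At Snrpb2 (chromosome 2, 143063069), the U2 B″ protein whose promoter is printed above, the peaks were nearly equal, at 1265 bp for Jmjd2a and 1281 bp for Jmjd2c, and overlapped by 1200 bp. Snrpc (chromosome 17, 27840087), the U1 C protein that contacts the 5′ splice site, had Jmjd2a peaks of 430 bp over the start and 412 bp upstream, and a Jmjd2c peak of 1480 bp. Snrpa, the U1 A protein, lay 16226 bp from the nearest Jmjd2a peak and 16209 bp from the nearest Jmjd2c peak. Snrpn, an imprinted gene expressed mainly in brain, lay 776557 and 775105 bp away.

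**Figure D2:**
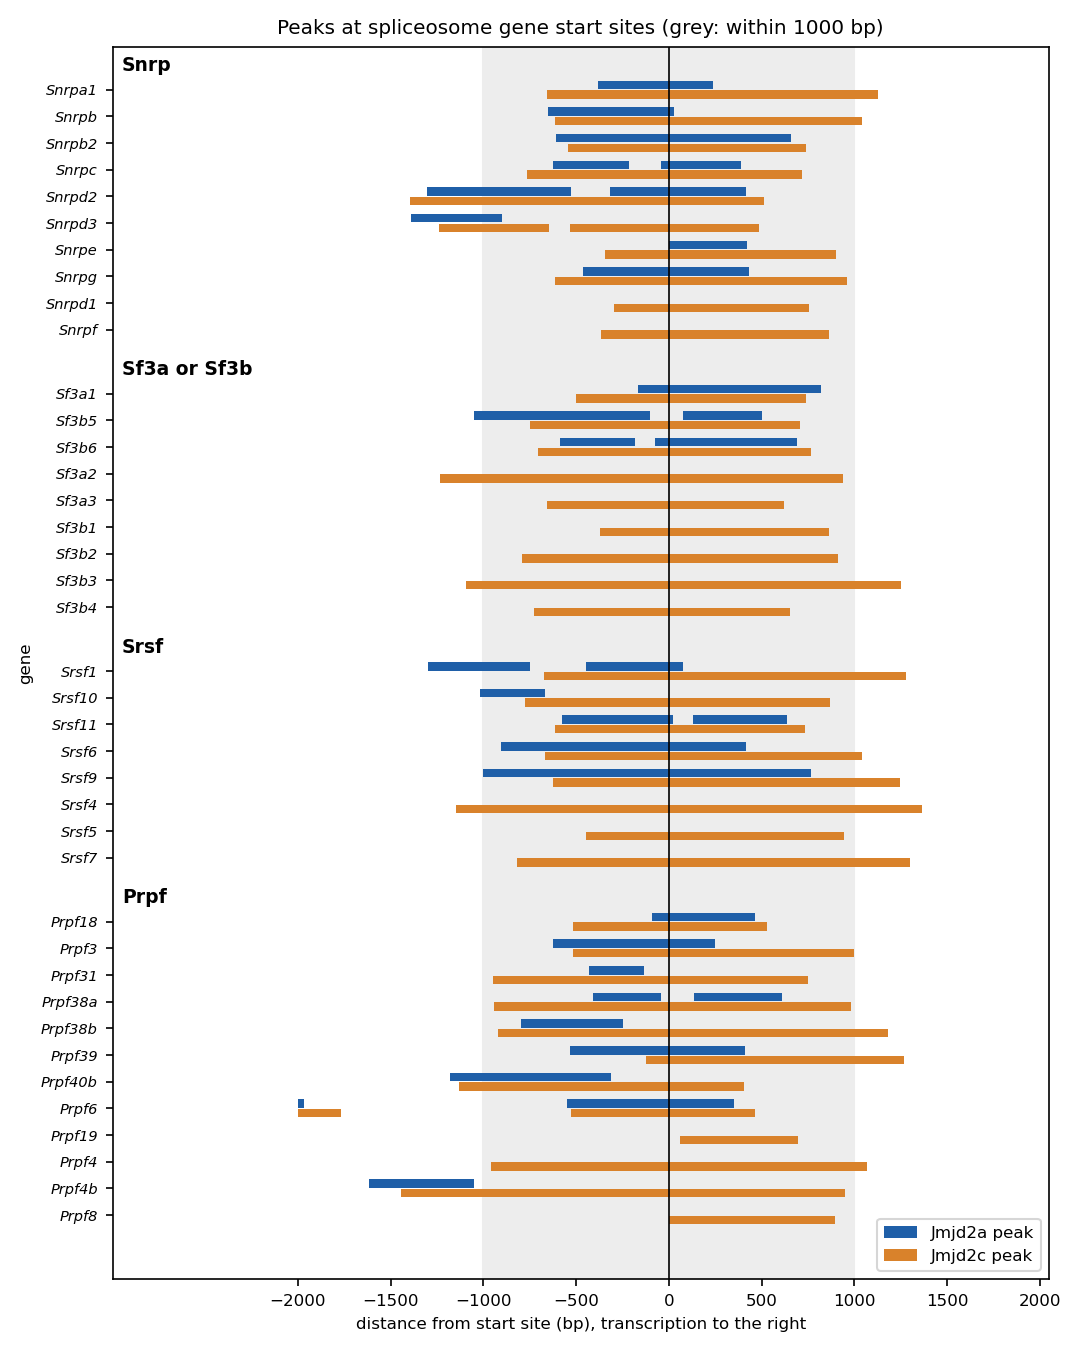
Peak spans of Jmjd2a and Jmjd2c around the start site of 39 of the 40 genes, in bp, oriented so that transcription runs to the right and clipped at 2000 bp to each side. Each bar is a peak and the grey band marks 1000 bp to each side. The 24 genes with Jmjd2a also carry Jmjd2c, and the Jmjd2a peaks are shorter and lie upstream of the start more often than downstream.

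All SF3a and SF3b genes carried Jmjd2c over the start, and Sf3a1, Sf3b5 and Sf3b6 also carried Jmjd2a. Sf3a1 (chromosome 11, 4160354), a subunit of SF3a, had a Jmjd2a peak of 991 bp and a Jmjd2c peak of 1243 bp. Sf3b5 (chromosome 10, 13008450), a small SF3b subunit, had Jmjd2a peaks of 425 bp, starting 77 bp inside the gene, and 950 bp, ending 99 bp upstream. Its Jmjd2c peak of 1455 bp covered the gap between them. Sf3b6 (chromosome 12, 4817608), the p14 protein at the branch-point adenosine, had Jmjd2a peaks of 770 bp over the start and 408 bp upstream under a Jmjd2c peak of 1473 bp.

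The other 6 Sf3 genes had Jmjd2a peaks no nearer than 22446 bp. Sf3b1 (chromosome 1, 55027478, minus strand), the scaffold of SF3b, carried a Jmjd2c peak of 1237 bp and lay 24755 bp from the nearest Jmjd2a peak. For Sf3b2, Sf3b4, Sf3a3, Sf3b3 and Sf3a2 these distances were 22446, 23978, 26373, 55480 and 56269 bp. The Jmjd2c peaks of Sf3b3 (2347 bp), Sf3a2 (2176 bp) and Sf3b2 (1707 bp) were wider than the median of 1425 bp at protein-coding genes with Jmjd2c. Those of Sf3b4 (1380 bp), Sf3a3 (1282 bp) and Sf3b1 were narrower.

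Of the SR protein genes, Srsf1, Srsf6, Srsf9, Srsf10 and Srsf11 carried both demethylases and Srsf4, Srsf5 and Srsf7 carried Jmjd2c alone. Srsf9 (chromosome 5, 115327177) had the widest Jmjd2a peak of all members, 1768 bp at chr5:115326177-115327944, which overlapped its Jmjd2c peak of 1877 bp by 1395 bp. Srsf6 (chromosome 2, 162931508) had a Jmjd2a peak of 1321 bp and a Jmjd2c peak of 1713 bp. At Srsf1 (chromosome 11, 88047373), the SR protein SF2/ASF, Jmjd2a had peaks of 525 bp over the start and 547 bp upstream, and Jmjd2c had a peak of 1954 bp. Srsf10 (chromosome 4, 135856071) had a Jmjd2a peak of 350 bp that ended 670 bp upstream and overlapped the Jmjd2c peak of 1644 bp by 104 bp.

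Srsf11 (chromosome 3, minus strand) had 2 start sites in the files. At 158036639, opposite Lrrc40, Jmjd2a had peaks of 600 and 508 bp and Jmjd2c a peak of 1351 bp. The other, 4885 bp into the gene at 158031754, had its own Jmjd2c peak of 1559 bp, with the nearest Jmjd2a peak 4248 bp away. Among the genes with Jmjd2c alone, Srsf4 had the widest peak of its class, 2514 bp, followed by Srsf7 with 2121 bp and Srsf5 with 1389 bp. Their nearest Jmjd2a peaks lay 29763, 67920 and 81199 bp away.

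The 3 SR genes without a named start differed from each other when their RefSeq starts were used. Srsf2, the SR protein SC35, lay 255 bp from a Jmjd2c peak of 1178 bp at chr11:116853349-116854526, which the deposited list names for its neighbour Mfsd11, and 9843 bp from the nearest Jmjd2a peak. Srsf3 lay 24644 bp from Jmjd2a and 24059 bp from Jmjd2c. Srsf12 lay 100980 and 37978 bp away. With RefSeq promoter starts, and the starts in the files for members lacking a promoter, the Jmjd2c count was therefore 41 of 45. Jmjd2a stayed at 24. Over the 16853 protein-coding genes with a RefSeq promoter, the change of start sites moved the Jmjd2a share from 32.7 to 33.2% and the Jmjd2c share from 45.5 to 46.4%.

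The Prpf symbols collect factors of several particles. Of the U4/U6 proteins, Prpf3 had a Jmjd2a peak of 875 bp and a Jmjd2c peak of 1519 bp. Prpf31 (chromosome 7, 3629985), which binds the U4 snRNA, had the narrowest Jmjd2a peak of all members, 300 bp at chr7:3629552-3629851, between Prpf31 and the divergent Tfpt and named for the latter, and a Jmjd2c peak of 1701 bp. Prpf4, the partner of Prpf3, had a Jmjd2c peak of 2030 bp, with the nearest Jmjd2a peak 48307 bp away. Prpf6, a bridging protein of the U5 snRNP, had peaks of 902 and 990 bp. Prpf8 (chromosome 11, 75486777), the U5 protein at the catalytic centre, had a Jmjd2c peak of 898 bp that began 2 bp inside the gene, with Jmjd2a no nearer than 31976 bp.

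Among the U1-associated factors, Prpf39 had a Jmjd2a peak of 944 bp and a Jmjd2c peak of 1391 bp, and Prpf40b had 869 and 1542 bp, with the Jmjd2a peak ending 314 bp upstream. Prpf38a had Jmjd2a peaks of 371 bp upstream, named for the divergent Orc1, and 475 bp starting 135 bp downstream, both under a Jmjd2c peak of 1927 bp. Prpf38b had a Jmjd2a peak of 550 bp ending 246 bp upstream and a Jmjd2c peak of 2104 bp, and Prpf18, a factor of the exon-ligation step, had 557 and 1047 bp.

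Prpf19 and Prpf4b carried Jmjd2c alone. Prpf19 (chromosome 19, 10895231), the ubiquitin ligase of the complex that bears its name, had the narrowest Jmjd2c peak of the members, 637 bp from 59 bp downstream of the start, and a Jmjd2a peak no nearer than 13015 bp. Prpf4b, a kinase of the tri-snRNP, had a Jmjd2c peak of 2393 bp. By its start in the files, 34875494, it was the gene just outside the Jmjd2a threshold, with a 567 bp peak at chr13:34873877-34874443, 1051 bp away. RefSeq begins the gene farther upstream, at 34874820, less than 1000 bp from that peak. Just inside the threshold were Snrpd3 at 899 bp and Srsf10 at 670 bp, and the next outside were Snrpf at 4513 bp and Snrpd1 at 7173 bp. Among the 40 genes with a named start site, the remaining 13 without Jmjd2a were at least 13015 bp from a Jmjd2a peak. The Jmjd2a count was 22 with a distance of 500 bp and 26 with 5000 bp, and the shares over all genes at these distances are not given here.

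Jmjd2a peaks at these genes were shorter than Jmjd2c peaks. The Jmjd2a peak nearest each start had a median width of 653 bp (300 to 1768 bp, 24 genes), against 793 bp at all protein-coding genes with Jmjd2a. For Jmjd2c the median was 1530.5 bp (40 genes, the narrowest 637 bp), against 1425 bp. Within the classes, the Jmjd2a medians were 653 bp for Snrp, 770 bp for Sf3, 600 bp for Srsf and 713 bp for Prpf. The Jmjd2c medians were 1380.5 bp for Snrp, 1455 bp for Sf3, 1795 bp for Srsf and 1542 bp for Prpf. The Jmjd2c peak was the wider in 24 of 24 members with both, against 86.7% of protein-coding genes with both, and some pair of their peaks within 1000 bp of the start overlapped in 24 of 24, against 98.6%. At Snrpd3 that pair was formed with the Jmjd2c peak named for Gucd1, and the Jmjd2a peak did not overlap the Jmjd2c peak over the Snrpd3 start. The nearest Jmjd2a peak lay wholly inside the Jmjd2c peak in 13 of 24 (54.2%, against 63.1%). Widths from separate peak calls depend on depth and threshold, so a width difference between the proteins is a description of the lists.

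Members with Jmjd2c alone had Jmjd2c peaks about as wide as those with both, with medians of 1548 and 1530.5 bp. At protein-coding genes these medians were 1349.5 and 1459.5 bp. The classes went in different directions: Snrp genes with both had a median of 1529 bp against 1140 bp for the 2 with Jmjd2c alone, whereas Prpf genes had 1530.5 bp against 2030 bp, Srsf genes 1713 bp against 2121 bp and Sf3 genes 1455 bp against 1543.5 bp. These groups hold 2 to 8 genes and their difference was not tested.

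**Figure D3:**
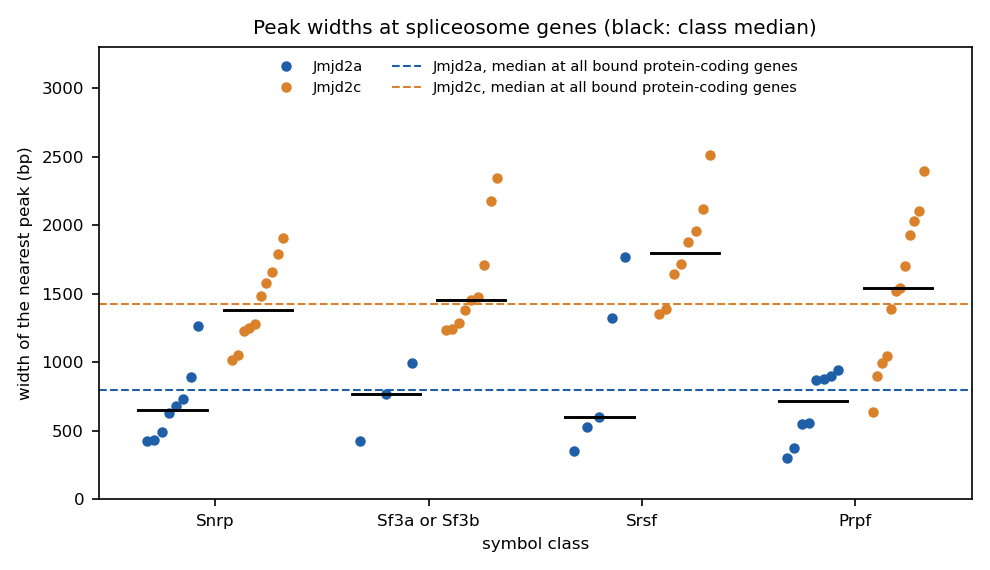
Width in bp of the Jmjd2a and Jmjd2c peak nearest the start of 39 of the 40 members, by symbol class. Points are genes, black bars are medians over all members of a class, and dashed lines are the medians at all protein-coding genes with the respective peak (793 and 1425 bp). Jmjd2a widths run from 300 to 1768 bp and the plotted Jmjd2c widths from 637 to 2514 bp.

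The start site itself lay under a Jmjd2c peak in 38 of 40 members (95%, against 93.7% of protein-coding genes with Jmjd2c), the exceptions being Prpf8 and Prpf19. It lay under the nearest Jmjd2a peak in 16 of 24 (66.7%, against 69.6%). The remaining Jmjd2a peaks were wholly upstream in 6 of 24 (25%, against 13.4%) and wholly downstream in 2 (8.33%, against 17.0%). The upstream peaks at Prpf31, Prpf38a and Snrpd3 are named for the divergent neighbours Tfpt, Orc1 and Gucd1, and Prpf38a had another Jmjd2a peak downstream. At Prpf40b the peak was upstream of the start in the files but covered the RefSeq gene start, 99295076. The upstream share therefore depends on the start site used and on neighbouring genes. Of the 8 Prpf genes with Jmjd2a, 4 had the nearest peak wholly upstream. Of the 16 peaks over the start, 6 (37.5%) reached farther downstream than upstream, against 69.1% at protein-coding genes, and their median reach was 498 bp upstream and 412.5 bp downstream, against 366 and 557 bp. Jmjd2c peaks over the start reached farther downstream in 26 of 38 members (68.4%, against 72.6%), with medians of 672 bp upstream and 886.5 bp downstream, against 587 and 837 bp. The classes did not behave alike: farther downstream reached 0 of 4 Jmjd2a and 8 of 8 Jmjd2c peaks at Srsf genes, 1 of 4 and 6 of 11 at Prpf genes, 3 of 6 and 7 of 10 at Snrp genes, but 2 of 2 and 5 of 9 at Sf3 genes. These shares were noticed among several measures of the same peaks and were not tested.

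Several Jmjd2a peaks within 1000 bp of the same start were found at 7 of the 24 members with Jmjd2a (29.2%), against 10.1% of all protein-coding genes with Jmjd2a. The 7 were Snrpc, Snrpd2, Sf3b5, Sf3b6, Srsf1, Srsf11 and Prpf38a. Of these 7, Srsf11 and Prpf38a were found to have the start site of another gene on the opposite strand within 1000 bp. At Snrpd2 no such start was found, although its upstream Jmjd2a peak is named for Qpctl. A neighbouring start may therefore have been missed there. Among the 39 members with a RefSeq promoter, an opposite-strand start within 1000 bp was found for 11 (28.2%). The share was 12.7% of 16853 protein-coding genes, 23.7% of those with both demethylases and 21.4% of those with Jmjd2c alone. These members were Snrpa, Snrpd3, Snrpf, Sf3a1, Sf3a2, Sf3b3, Srsf2, Srsf11, Prpf4, Prpf31 and Prpf38a. The share was 5 of 21 (23.8%) in members with both and 4 of 13 (30.8%) in those with Jmjd2c alone. A peak between divergent starts cannot be assigned to either gene by position, and the part of these neighbours in the members' counts was not tested.

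Other genes of the splicing machinery were grouped in 9 lists by particle and step, and Jmjd2c occupied more of them than Jmjd2a in every list except LSm. Of 156 such genes, Jmjd2a occupied 86 (55.1%), Jmjd2c 141 (90.4%) and both 84 (53.8%), and 13 carried neither. Of the genes of other U1 and U2 proteins, 11 of 22 carried Jmjd2a (50%) and 21 Jmjd2c (95.5%), with peaks of 897 and 1000 bp for Jmjd2a and Jmjd2c at Rbmx2, 891 and 2249 bp at U2surp, and 882 and 1138 bp at the helicase gene Ddx46. Ddx39b carried neither. Of the other tri-snRNP genes, 11 of 15 carried Jmjd2a (73.3%) and 14 Jmjd2c (93.3%), among them Aar2, a U5 assembly factor, with 1475 and 1741 bp, and Snu13, which binds U4 snRNA, with 1300 and 1380 bp, while Cd2bp2 carried neither. The LSm genes, whose proteins form the ring on U6 snRNA and on decaying mRNA, had the highest Jmjd2a share, 7 of 8 (87.5%), and the same 7 carried Jmjd2c. Their Jmjd2a peaks included 1612 bp at Lsm5 and 1605 bp at Lsm1. Lsm4 carried neither by the start sites in the files, and had no RefSeq promoter start by which to check this.

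Of the Prp19 complex and catalytic-step genes, 15 of 27 carried Jmjd2a (55.6%) and 25 Jmjd2c (92.6%), for example Cdc5l, a core subunit of that complex, with 1379 and 1684 bp. Xab2 carried neither, with peaks no nearer than 9154 bp. In the minor spliceosome, which removes the rare U12-type introns, Jmjd2a occupied 7 of 12 genes (58.3%) and Jmjd2c 12 of 12 (100%), with 1597 bp for each at Rbm48 and 1207 and 1636 bp at Pdcd7. Of the snRNP assembly genes, 10 of 16 carried Jmjd2a (62.5%) and 15 Jmjd2c (93.8%), including Clns1a, which holds Sm proteins before assembly, with 1735 and 1589 bp, and Smn1, of the SMN complex that loads Sm rings, with 1100 and 1289 bp. Jmjd2a was at 4 of 6 exon-junction genes (66.7%) and Jmjd2c at all 6 (100%), with 1195 and 1525 bp at Rbm8a and 519 and 1424 bp at Eif4a3, the helicase of that complex.

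By the start sites in the files, the lowest Jmjd2a shares were in the lists of regulators outside the snRNPs. Of SR kinases and SR-related proteins, 12 of 25 carried Jmjd2a (48.0%) and 21 Jmjd2c (84.0%), and Sfswap had the widest Jmjd2a peak of the 9 lists' named genes, 1902 bp, beside a Jmjd2c peak of 1901 bp. At Clk4, a kinase of SR proteins, the Jmjd2a peak was the wider, 1344 against 687 bp. Of the hnRNP genes, 9 of 25 carried Jmjd2a (36%) and 20 Jmjd2c (80.0%), with 1332 and 2087 bp at Hnrnpll and 1069 and 1029 bp at Hnrnpc. The hnRNP genes without either included Hnrnpa1, 71168 bp from Jmjd2a and 32444 bp from Jmjd2c, and Hnrnpa3 and Hnrnph2. Srpk3, a muscle kinase of SR proteins, also carried neither. The RefSeq starts of Srek1 and Srpk2 lay under peaks of both proteins although the files name other starts or none there, so those 2 genes count as carrying neither by the rule alone. Both are in the SR list, and counting them would lift its Jmjd2a share above that of the U1 and U2 list, with the other lists unchanged. No list was tested against another.

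**Figure D4:**
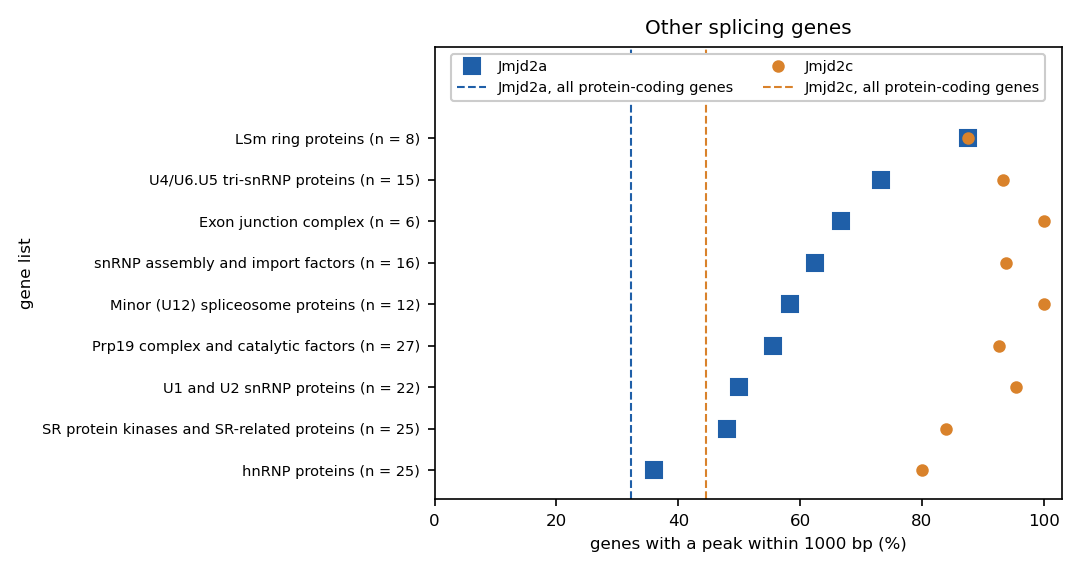
Percent of the genes of 9 further splicing lists with a Jmjd2a (squares) or Jmjd2c (circles) peak within 1000 bp of a start site. Dashed lines are the shares over all protein-coding genes, 32.3% and 44.6%. Jmjd2c lies between 80.0 and 100% in every list, and Jmjd2a runs from 36% (hnRNP) to 87.5% (LSm).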

How the data were processed

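ChIP-seq was performed for Jmjd2a, Jmjd2c, H3K9me3 and H3K36me3 in untreated and OHT-treated cells, and groups were taken from the sample titles. The build was mm10 and the tools were bedtools 2.25.0, SAMtools and Bowtie 0.12.7, per the submitters' processing notes. The sources used here give neither the peak caller nor its threshold or control. Per the file headers, the authors deposited peak positions, each with its nearest start site and the distance to it, and no score or value per library. Recomputed distances equalled the deposited ones for all peaks with a single nearest start site (8441 Jmjd2a and 8981 Jmjd2c peaks), and the others were not compared. Members and lists were chosen with earlier results of these data known. Start sites came from the files, with 16875 of 17007 accessions matched to RefSeq (GRCm38.p6), which also gave the gene totals and promoters. Every member was described except 1 gene that is counted but not reported here, and genes of the further lists were named from the 3 with the widest Jmjd2a peaks among those with both proteins, the widest always included, and from up to 3 with neither. The occupancy step was tested on simulated single peaks planted inside or beyond the threshold, each beside 1 start site. Distance and call were right for 400 of 400. This checks the distance calculation only, and not competing peaks or the assignment of start sites. Python 3.11.15, pandas 2.3.3, scipy 1.17.1 and matplotlib 3.10.9 were used. Alternatives were other distances, the wider 50% of peaks, peak-list starts alone, older symbols and other overlap rules. No test was run, since no value has replicates.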

Additional observations from a re-analysis of the deposited data

How the results depend on the processing

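The counts rest on calls whose depth and threshold are unknown, and no library can be left out. Under a distance of 500 or 5000 bp, peak-list starts alone, or 2 alternatives chosen after seeing the data (RefSeq starts, and the rule applied to the deposited names alone), all class counts stayed within 1.5 times the main ones. The median Jmjd2a width moved to 706 bp at 500 bp and to 619.5 bp at 5000 bp. Keeping the wider 50% of each list lowered Snrp to 3 genes with Jmjd2a, 5 with Jmjd2c and 2 with both, Srsf to 2 with Jmjd2a and 2 with both, Prpf to 4 with Jmjd2a and 3 with both, and all classes to 12 with Jmjd2a and 9 with both. In that setting Sf3 kept 3 with Jmjd2a, so its share went from the lowest of the classes to the highest, though narrowly, at 3 of 9 genes against 4 of 13 for Prpf. Older symbols added 9 genes to the 11 of Srsf, giving 12 of 20 with Jmjd2a (60%), 16 of 20 with Jmjd2c (80%) and 12 with both. Requiring overlap of 50% of the shorter peak left overlapping peaks at 23 of 24 genes. No paired analysis was possible because no result comes from values per library.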
